A study of Arabidopsis thaliana with 6 samples.

Results

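The genes described here are 10 cysteine-rich receptor-like kinases (CRKs) of Arabidopsis thaliana, out of 33602 loci in the deposited table. They were picked by locus as CRK4, CRK5, CRK6, CRK7, CRK8, CRK10, CRK11, CRK13, CRK14 and CRK36. The group was chosen because CRK4 had 1 of the largest drops between the 2 genotypes, and the differences of these 10 genes between genotypes are given as a description, without a test. Where limma counts include these genes, nothing is read from the counts. RNA came from whole seedlings at day 14 of a mutant line, cfm6-1, with genotype CFM6-/- in the Col-0 background, and of the Col-0 wild type (WT). Both genotypes were raised on medium containing 1% sucrose, kept at 22 °C under a day of 16 h light and 8 h dark. Each genotype had 3 libraries that the labels call biological replicates. The labels do not say whether these came from separate sowings. The p-values set the genotype difference against the spread between these libraries, which may not include spread between sowings. CFM6 is a CRM domain protein, an RNA-binding protein that the series title ties to the splicing of an intron of the mitochondrial gene nad5. The labels do not describe the cfm6-1 lesion.

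CRKs are membrane proteins with an outer part rich in cysteines, known as the DUF26 domain, 1 membrane span and an inner kinase domain. Many respond to pathogens, salicylic acid and reactive oxygen species, and several change immune responses when overexpressed. Most sit in tandem arrays of similar genes on chromosome 4. W-boxes, short DNA elements with the core TTGAC that WRKY transcription factors bind, are common in promoters of defence genes, and WRKY binding to W-boxes of CRK promoters has been described.

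The table holds RPKM, read counts scaled to the length of the gene model and to the depth of the library, so levels can be set side by side between genes. Depth, read from the steps between low values, was 47.3 to 52.7 M reads in cfm6-1 and 49.6 to 50.6 M reads in WT. CFM6 (AT4G13070) was at 1.32, 1.23 and 1.32 RPKM in the cfm6-1 libraries, against 3.85, 3.69 and 4.10 RPKM in the WT libraries (limma adjusted p = 1.2e-05). Markers of shoot and root were present in all libraries, and the 2 seed and 2 flower markers summed to less than 1 RPKM in each. The seed sum was 0.85 RPKM in cfm6-1 replicate 1 and no more than 0.08 RPKM in any other library. The flower sum was 0.07 to 0.11 RPKM in cfm6-1 and 0.34 to 0.69 RPKM in WT. SAG12, a marker of late senescence, was at 0.02 RPKM or less in cfm6-1 and at 0.02, 0.54 and 0.62 RPKM in WT. The 4 shoot markers, among them the Rubisco subunit gene RBCS1A, summed to 4940 to 5480 RPKM in cfm6-1 and to 8350 to 9460 RPKM in WT. The 4 root markers summed to 2260 to 2690 RPKM in cfm6-1 and to 1660 to 1860 RPKM in WT; that sum is led by PYK10, while CASP1, COBL9 and EXP7 had lower means in cfm6-1. The part of tissue make-up in the results below was not tested, and in whole seedlings fewer cells of a type and less RNA per cell cannot be told apart.

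The promoters of 5 genes are shown because these genes stand at the 2 ends of the range described below: CRK4, CRK6 and CRK7 had the lowest levels in cfm6-1 relative to WT, and CRK10 and CRK11 had higher means in cfm6-1. Each line is the 250 bases before the annotated gene start, 5′ to 3′ on the gene's strand, from the RefSeq genome TAIR10.1. Capitals mark the W-box core TTGAC on either strand, which reads GTCAA when it lies on the opposite strand. The windows are chr3:16866262-16866511 (minus strand) for CRK4, chr4:12121119-12121368 (plus) for CRK6, chr4:12125414-12125663 (plus) for CRK7, chr4:12137745-12137994 (plus) for CRK10 and chr4:12143859-12144108 (minus) for CRK11. No other annotated gene overlaps these windows.
CRK4: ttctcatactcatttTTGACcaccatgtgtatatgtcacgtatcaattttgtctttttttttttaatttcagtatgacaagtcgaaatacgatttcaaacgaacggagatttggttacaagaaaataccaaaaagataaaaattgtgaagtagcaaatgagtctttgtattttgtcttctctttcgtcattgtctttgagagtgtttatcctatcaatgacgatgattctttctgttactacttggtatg
CRK6: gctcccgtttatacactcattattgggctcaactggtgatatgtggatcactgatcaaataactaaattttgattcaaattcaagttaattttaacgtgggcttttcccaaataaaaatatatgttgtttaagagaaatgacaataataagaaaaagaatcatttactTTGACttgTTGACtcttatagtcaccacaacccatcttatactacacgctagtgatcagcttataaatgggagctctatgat
CRK7: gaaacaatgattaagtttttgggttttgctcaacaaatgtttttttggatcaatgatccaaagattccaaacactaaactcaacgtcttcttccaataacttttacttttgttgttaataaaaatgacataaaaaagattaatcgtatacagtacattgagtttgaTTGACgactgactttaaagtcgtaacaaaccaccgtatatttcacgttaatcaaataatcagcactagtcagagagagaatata
CRK10: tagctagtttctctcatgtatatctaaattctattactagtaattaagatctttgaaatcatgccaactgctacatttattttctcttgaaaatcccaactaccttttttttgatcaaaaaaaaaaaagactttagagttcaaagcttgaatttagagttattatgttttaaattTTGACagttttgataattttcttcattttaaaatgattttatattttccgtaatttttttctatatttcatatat
CRK11: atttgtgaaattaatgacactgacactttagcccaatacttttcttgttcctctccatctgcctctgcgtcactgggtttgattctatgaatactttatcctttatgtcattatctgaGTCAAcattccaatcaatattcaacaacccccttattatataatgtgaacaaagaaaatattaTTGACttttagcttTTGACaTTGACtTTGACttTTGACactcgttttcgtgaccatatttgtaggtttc

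The 10 CRKs did not move one way. CRK4, CRK6, CRK7 and CRK8 were at 1.18% to 17.9% of their WT means in cfm6-1, CRK5 was at 63.4%, CRK11 was at 209%, and CRK10, CRK13, CRK14 and CRK36 overlapped between genotypes. The 3 cfm6-1 libraries lay entirely below the WT libraries for 5 members and entirely above them for 1, and they overlapped for 4. Over the 20047 tested loci, those that reached 1 RPKM in 3 or more libraries, 32.8% lay entirely below and 41.5% entirely above. By limma on log2(RPKM + 1) with Benjamini-Hochberg adjustment, 6 members were past an adjusted p of 0.05 as lower and 1 as higher, where 30.2% and 38.6% of all tested loci were. The balance over all loci turned with the scaling: 6063 were lower and 7736 higher in the values as deposited, but 7248 lower and 6562 higher after quantile normalization. Since the genes were chosen from this contrast, nothing is read from these counts. All 10 members passed the filter on low values, but 4 of them (CRK4, CRK6, CRK7 and CRK8) did so through their WT libraries alone. The median difference over the 10 was -0.58 on the log2(RPKM + 1) scale, against 0.05 over all tested loci.

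**Figure D1:**
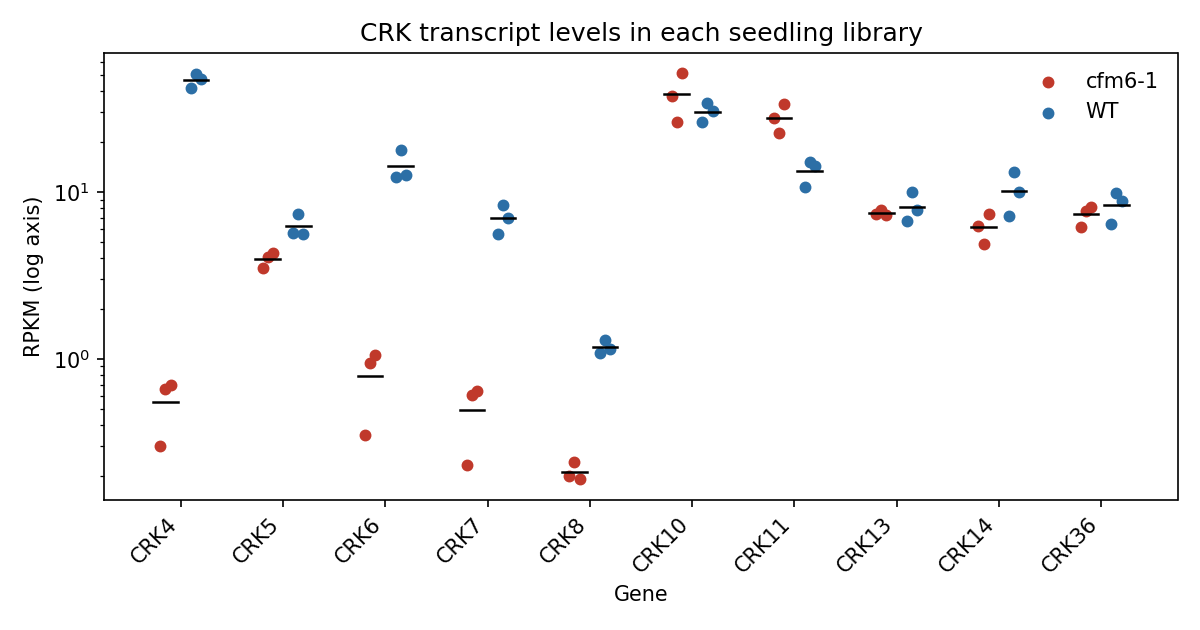
RPKM (log axis) of the 10 CRK genes in each library, with cfm6-1 (red) left of WT (blue) and a black bar at each mean of 3 libraries. CRK4, CRK6, CRK7 and CRK8 sit below 1.1 RPKM in every cfm6-1 library, while CRK11 is above its WT libraries in all 3.

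CRK4 (AT3G45860), a kinase that associates with the flagellin receptor FLS2 and strengthens the oxidative burst when overexpressed, had 0.30, 0.66 and 0.70 RPKM in cfm6-1 replicates 1 to 3. In WT replicates 1 to 3 it had 42.09, 50.69 and 47.50 RPKM. The means were 0.553 ± 0.220 RPKM in cfm6-1 and 46.8 ± 4.35 RPKM in WT (SD, n = 3 each). It was the most abundant of the 10 in WT and the third lowest in cfm6-1, and every cfm6-1 library was at least 60.1-fold below every WT library. Its mean was 84.5-fold lower in cfm6-1. The difference on the log2(RPKM + 1) scale was -4.95 (SE 0.12), and with a pseudocount of 0.1 in place of 1 it was -6.23. The RPKM values stand for 174 reads in the 3 cfm6-1 libraries and 14322 in the 3 WT libraries, with no multiply mapped reads at the locus. CRK4 made up 0.594% of the summed RPKM of the 10 genes in cfm6-1 and 32.1% in WT. The summed RPKM of the 10 in cfm6-1 was 64% of that in WT, and 93.8% once CRK4 was left out.

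CRK6 and CRK7, linked in earlier work to protection against reactive oxygen species outside the cell, were low in the same libraries. CRK6 (AT4G23140) had 0.35, 0.95 and 1.06 RPKM in cfm6-1, against 12.25, 17.73 and 12.67 RPKM in WT. CRK7 (AT4G23150) had 0.23, 0.61 and 0.64 RPKM in cfm6-1, against 5.62, 8.40 and 6.97 RPKM in WT. Both had their lowest value of all 6 libraries in cfm6-1 replicate 1, and so did CRK4. Their means were 18.1-fold (CRK6) and 14.2-fold (CRK7) lower in cfm6-1, and their differences on the log2(RPKM + 1) scale were -3.10 (SE 0.19) and -2.42 (SE 0.16). CRK7 rests on 154 reads in cfm6-1 and 2123 in WT, and with a pseudocount of 0.1 in place of 1 its difference was -3.65.

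CRK8 (AT4G23160) was the least abundant of the 10 in both genotypes. It had 0.20, 0.24 and 0.19 RPKM in cfm6-1, against 1.08, 1.30 and 1.14 RPKM in WT, or 125 reads against 688. The genotypes did not overlap, and its mean was 17.9% of WT. On the log2(RPKM + 1) scale the difference was -0.84 (SE 0.08), which understates the change at levels this low: it was -2.04 with a pseudocount of 0.1 and -2.46 by limma-voom on rebuilt reads. CRK5 (AT4G23130), whose overexpression raises pathogen resistance and whose loss speeds senescence, had 3.5, 4.07 and 4.29 RPKM in cfm6-1, against 5.70, 7.42 and 5.6 RPKM in WT. Its genotypes did not overlap either, but the nearest libraries were only 1.31-fold apart.

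CRK11 and CRK10 were the 2 members with a higher mean in cfm6-1, and the genotypes were separate for CRK11 alone. CRK11 (AT4G23190), first described as RLK3 and induced by pathogens, salicylic acid and oxidative stress, had 27.57, 22.46 and 33.45 RPKM in cfm6-1, against 10.75, 15 and 14.24 RPKM in WT. Its mean was 2.09-fold higher in cfm6-1, with a difference of 1.00 on the log2(RPKM + 1) scale (SE 0.16). CRK10 (AT4G23180), in which a gain-of-function mutation alters root xylem vessels, had 37.59, 26.16 and 51.31 RPKM in cfm6-1, against 26.06, 34.00 and 30.34 RPKM in WT. Its lowest cfm6-1 library lay beside the lowest WT library and the other 2 lay above every WT library, and its difference was 0.30 (SE 0.22). CRK10 and CRK11 run towards each other and overlap by 32 bases at their ends, and whether the counting used strand is not given in the sources used here.

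CRK13, CRK14 and CRK36 overlapped between genotypes. CRK13 (AT4G23210), whose overexpression raises salicylic acid and resistance to Pseudomonas syringae, had 7.37, 7.77 and 7.27 RPKM in cfm6-1, against 6.72, 10 and 7.79 RPKM in WT. CRK36 (AT4G04490), which acts with the kinase ARCK1 in abscisic acid responses and with BIK1 in immunity, had 6.15, 7.69 and 8.17 RPKM in cfm6-1, against 6.38, 9.80 and 8.84 RPKM in WT. CRK14 (AT4G23220) had 6.23, 4.86 and 7.40 RPKM in cfm6-1, against 7.21, 13.17 and 10.01 RPKM in WT. Of the 3, CRK14 had the widest gap in means, at 60.8% of WT, and only its highest cfm6-1 library reached into the WT range. CRK14 is 1 of the 6 members counted as lower by limma above, a count from which nothing is read. It dropped out of that count with no filter on low values, and when WT replicate 2, WT replicate 3, cfm6-1 replicate 1 or cfm6-1 replicate 2 was left out. CRK13 was at 91.4% and CRK36 at 88.0% of the WT mean, and the sign of the CRK13 difference turned without WT replicate 2, at 0.04 against -0.10 on the log2(RPKM + 1) scale.

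The order of levels therefore differed between genotypes. In cfm6-1 it ran CRK10, CRK11, CRK13, CRK36, CRK14, CRK5, CRK6, CRK4, CRK7 and CRK8, with means between 38.4 and 0.210 RPKM. Neighbours in that order were separated by their libraries only between CRK11 and CRK13, between CRK14 and CRK5 and between CRK5 and CRK6. In WT the order was CRK4, CRK10, CRK6, CRK11, CRK14, CRK36, CRK13, CRK7, CRK5 and CRK8, with means between 46.8 and 1.17 RPKM. There CRK4 and CRK10 were each separate from the next gene below, the 7 genes from CRK6 to CRK5 formed a chain of overlapping neighbours, and CRK8 lay apart at the bottom.

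Similar sequences limit what can be told apart at CRK6, CRK8 and CRK13. The deposited largest share of multiply mapped reads was 0.107 for CRK6, 0.0934 for CRK13, 0.0641 for CRK8 and 0 for the other 7 members. The CRK6 level is reported as uncertain, being above a share of 0.1. In the RefSeq TAIR10.1 transcripts, 8.24% of the 100-base windows of CRK6, the length of a read here, also occurred elsewhere in the genome without a mismatch, all of them in CRK8. For CRK8, 7.95% of windows recurred, all in CRK6, and for CRK13 8.09% recurred, all in CRK22 (AT4G23300). None of the windows of the other 7 members recurred. CRK6 and CRK8 were low in cfm6-1 alike, whereas CRK22 was at 143% of WT and CRK13 at 91.4%.

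Coding sequences of the members were 61.9% to 88.7% identical over their aligned bases. CRK6 and CRK8 were closest at 88.7% over 1338 aligned bases, followed by CRK7 and CRK8 at 86.1% over 1311. The coding sequence of CRK8 has 3132 bases, so these values cover only a part of it. CRK6 and CRK7 followed at 83.3% over 1971 aligned bases. CRK10 was next, at 79.8% identity with CRK6 and 78.2% with CRK7, yet its lowest cfm6-1 library, at 26.16 RPKM, lay far above their highest, at 1.06 RPKM. CRK4, on chromosome 3, was closest to CRK5, at 74.6%.

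Of the 10 members, 8 lie in 1 array of 20 CRK genes on chromosome 4, with 3 other annotated loci scattered among them. CRK6, CRK7, CRK8 and CRK9 are neighbours on the same strand and all had non-overlapping lower levels in cfm6-1. CRK9, named here for its place after its values were seen, was at 10.5 RPKM in cfm6-1 and 27.4 RPKM in WT. CRK10, the next gene on the same strand, was not lower. At the other edge, CRK5 and CRK6 point away from each other with 1148 bases between their starts, and their means in cfm6-1 were 63.4% and 5.53% of WT. Lower levels also appeared further along the array, at CRK15 and CRK23. Beside these genes, the log2 ratio of mean RPKM was -0.71 for CRK14, 0.23 for CRK16, 0.51 for CRK22 and -0.57 for CRK24.

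**Figure D2:**
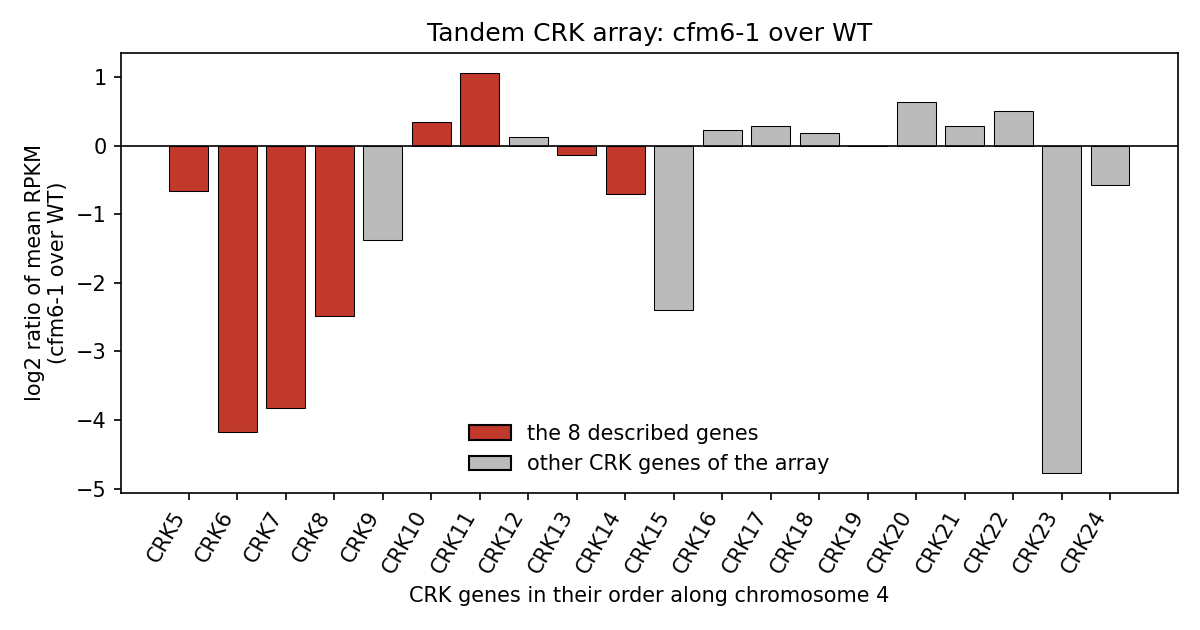
Log2 ratio of mean RPKM, cfm6-1 over WT, for the 20 CRK genes of the chromosome 4 array in their order along the chromosome; red bars are the 8 described genes and grey bars the other CRK genes. The lowest bars are CRK23 at -4.77, CRK6 at -4.17, CRK7 at -3.83 and CRK8 at -2.48, and the highest is CRK11 at 1.06.

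W-box cores were found in the 250-base windows of 9 of the 10 members. The search was for TTGAC on both strands; 44.9% of the windows of 27443 protein-coding nuclear genes held it, as did 22 of the 34 other CRK windows. CRK11 held 6 cores, 5 of them within 69 bases of the start, and CRK5 held 3. CRK6 and CRK14 held 2 each, CRK4, CRK7, CRK8, CRK10 and CRK36 held 1 each, and CRK13 held none. In the lines printed above, the core of CRK4 lies 235 to 231 bases before the start, whereas those of CRK6, CRK7 and CRK10 lie within 84 bases of it. Cores were present both in members that were low in cfm6-1 and in members that were not. The as-1 core TGACG, a binding element of TGA factors whose letters can overlap those of TTGAC, was in 5 of 10 member windows. It was also in 9 of the 34 other CRK windows and in 18.6% of all windows.

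The WT libraries ranked nearly alike for all members. WT replicate 2 had the highest value of the 3 WT libraries for 10 of 10 members, and WT replicate 1 the lowest for 9 of 10. Over all tested loci these libraries were highest and lowest in 30.7% and 37.8%, and over the other tested CRK loci in 65.5% and 62.1%. The median deviation of the members from their WT mean was 0.23 in WT replicate 2 and -0.21 in WT replicate 1 on the log2(RPKM + 1) scale, while all tested loci had a median deviation of 0.00 in both. In cfm6-1, replicate 3 was highest for 8 of 10 members, in 48.3% of the other tested CRK loci and in 29.8% of all tested loci. CRK4, CRK5, CRK6, CRK7 and CRK36 were lowest in cfm6-1 replicate 1, whereas CRK10, CRK11 and CRK14 were lowest in replicate 2. The members varied more between replicates than most loci, with a median coefficient of variation of 20.2% in cfm6-1 and 18.4% in WT. It was 10.4% and 11.1% over the other tested CRK loci, and 6.20% and 5.74% over all tested loci. In cfm6-1 the low values of CRK4, CRK6 and CRK7 gave 39.8%, 48.6% and 46.3%.

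**Figure D3:**
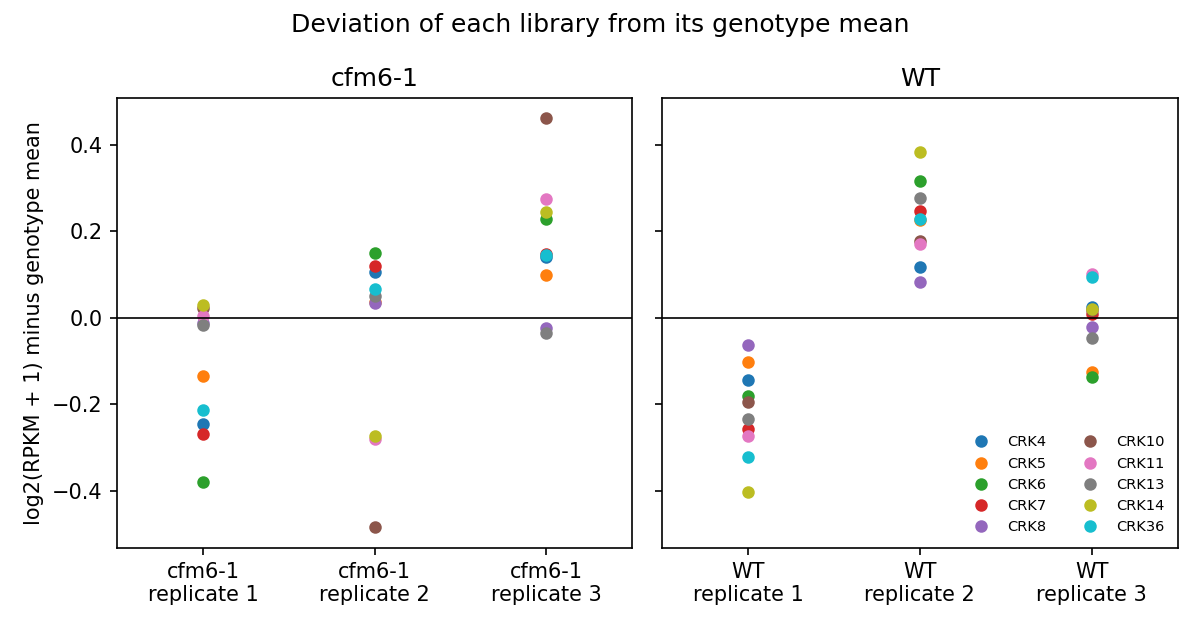
Deviation of each library from the mean of its genotype on the log2(RPKM + 1) scale, 1 point per gene, with cfm6-1 libraries in the left panel and WT libraries in the right. All 10 points of WT replicate 2 lie above 0 and all 10 of WT replicate 1 lie below it.

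The same libraries stood out for the salicylic acid pathway. Among 16 genes of that pathway, WT replicate 2 was highest for 14, WT replicate 1 lowest for 14 and cfm6-1 replicate 3 highest for 10. Among 17 immune receptors and their partners, WT replicate 1 was lowest for 17 and cfm6-1 replicate 3 highest for 14. There cfm6-1 replicate 2 was lowest for 13, but it was lowest for only 3 of the 10 members. Over all tested loci WT replicate 1 was lowest in 37.8% and cfm6-1 replicate 2 in 24.8%, and cfm6-1 replicate 3 was highest in 29.8%. What differed between these libraries was not tested.

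The rest of the family was split as well. Of 35 other family loci, 29 were tested, and 12 fell and 7 rose in cfm6-1 (limma adjusted p below 0.05), with a median difference of -0.11 on the log2(RPKM + 1) scale. Of all tested loci 30.2% fell and 38.6% rose. Of the 29, 6 passed the filter on low values through WT alone, CRK37, CRK23 and CRK15 among them, and with no filter the count that fell was also 12. The reference table gives 3 of the 35 loci no CRK name, and these are called by locus.

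CRK37 (AT4G04500), near CRK36 on chromosome 4, fell to 0.08, 0.38 and 0.21 RPKM in cfm6-1, against 6.05, 8.70 and 8.28 RPKM in WT (difference -2.82, limma adjusted p = 5.29e-05 with no filter). CRK23 (AT4G23310) was at 0.03, 0.05 and 0.08 RPKM in cfm6-1 and at 1.19, 1.55 and 1.61 RPKM in WT (limma adjusted p = 6.6e-05 with no filter), which stands for 22 reads in cfm6-1 and 545 in WT. CRK15 fell to 18.9% of WT (limma adjusted p = 0.000421 with no filter) and CRK34 to 57.5% (limma adjusted p = 0.000107). Like CRK4, CRK37 and CRK23 were at a few percent of WT, at 2.91% and 3.68%. CRK25 fell to 24.7% of WT (limma adjusted p = 1.81e-05), but its multiply mapped share reached 0.147 and a gene on the opposite strand overlaps it by 492 bases, so its level is uncertain.

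Rises in the family were smaller than the largest drops. CRK28 (AT4G21400), a kinase that associates with the co-receptor BAK1, rose to 12.63, 12.94 and 11.21 RPKM in cfm6-1, against 6.50, 6.41 and 6.98 RPKM in WT (limma adjusted p = 5.03e-05); it overlaps CRK29 on the same strand by 470 bases. AT4G11500, a transcribed pseudogene in the reference, rose 4.88-fold (limma adjusted p = 0.00019 with no filter). It passed the filter on low values through cfm6-1 alone, with 0.47, 0.85 and 0.89 RPKM in WT. CRK22 rose 1.43-fold (limma adjusted p = 8.05e-05), with a multiply mapped share of 0.101 that makes it uncertain. ARCK1 (AT4G11890), named after its values were seen because it is a known partner of CRK36, was at 6.72 RPKM in cfm6-1 and 21.3 RPKM in WT (limma adjusted p = 0.000107). ARCK1 was at 31.5% and CRK36 at 88.0% of WT, and the difference between them was not tested.

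**Figure D4:**
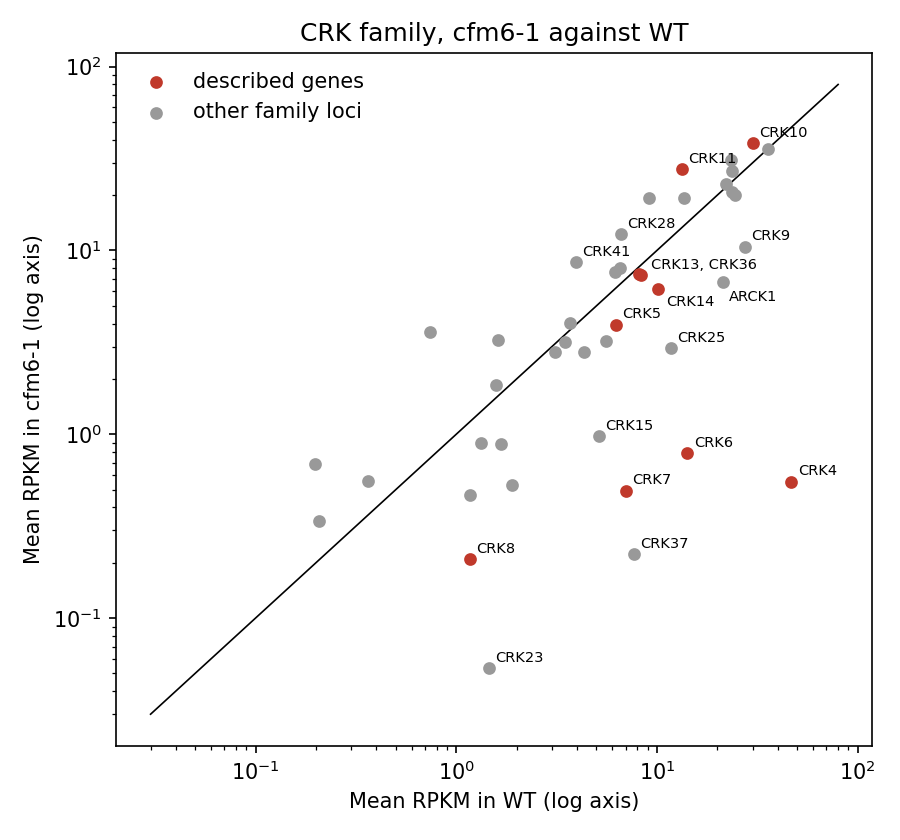
Mean RPKM in cfm6-1 against mean RPKM in WT (both log axes) for the 43 family loci above 0 in both genotypes; red points are the 10 described genes, grey points the other loci, and the line marks equal levels. CRK4, CRK6, CRK7, CRK37 and CRK23 lie far below the line, and CRK11 lies above it.

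The counts in the next lists are set against 30.2% fallen and 38.6% risen over all tested loci. Of the 8 plasmodesmata-located proteins PDLP1 to PDLP8, membrane proteins with the same outer domain, 1 fell and 3 rose; 2 fell without WT replicate 3 or with median-of-ratios scaling, and 3 with quantile normalization. PDLP5, which closes plasmodesmata in response to salicylic acid, fell to 32.6% of WT (6.85 ± 0.420 RPKM in cfm6-1 and 21.0 ± 3.02 RPKM in WT, SD, n = 3 each, limma adjusted p = 1.93e-05). PDLP2 rose 1.39-fold (limma adjusted p = 0.000651) and PDLP7 1.30-fold (limma adjusted p = 0.00114). Of the 17 immune receptors and partners, 6 fell and 8 rose, shares near those over all tested loci. BIK1, the cytoplasmic kinase below immune receptors, rose 2.09-fold (limma adjusted p = 3.23e-05), and RBOHF, an NADPH oxidase, rose 1.69-fold (limma adjusted p = 3.86e-05). CERK1, the chitin receptor kinase, fell to 54.7% of WT (limma adjusted p = 4.36e-05).

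Of the 16 salicylic acid pathway genes, 11 fell and 3 rose, where 30.2% of all tested loci fell and 38.6% rose, and their median difference was -0.75 on the log2(RPKM + 1) scale. PR5, a pathogenesis-related protein, fell to 13.0% of WT (limma adjusted p = 7.38e-06) and PR2, a glucanase, to 9.19% (limma adjusted p = 4.99e-05). NPR4, a salicylic acid receptor, fell to 39.6% (limma adjusted p = 2.78e-05). The 3 that rose, named after their values were seen, were WRKY18, SAG101 and NPR3. SAG101 rose 1.90-fold (limma adjusted p = 0.000431) and NPR3, a relative of NPR4, 1.61-fold (limma adjusted p = 0.00965).

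The 5 loci whose pattern over the 6 libraries was closest to CRK4, by Euclidean distance between log2(RPKM + 1) values centred on each locus, were ACD6, AT2G47880, PCC1, AT1G21525 and AT2G32160. ACD6 was the nearest, at a distance of 0.25, with means of 0.913 RPKM in cfm6-1 and 52.3 RPKM in WT; it encodes an ankyrin-repeat membrane protein that promotes salicylic acid-dependent defence. The other 4 lay at distances of 0.68 to 1.23, and the level of PCC1 is uncertain because its multiply mapped share reached 0.354. No other CRK was among the 5. CRK4 was chosen for its large drop, and this distance depends mostly on the size of that drop. The 5 loci are thus ones with drops of like size, at differences of -3.98 to -5.33. ACD6, AT2G47880, AT1G21525 and AT2G32160 also passed the filter on low values through WT alone. Regulation shared with CRK4 was not tested.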

How the data were processed

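RNA from 3 cfm6-1 and 3 WT seedling samples was sequenced as 100-base single-end reads, per the labels' protocols. The authors deposited RPKM values for 33602 loci, with a fraction per locus whose column name reads as the maximum multiply mapped ratio, and a second table from which gene model length was taken. The build is TAIR10, per the submitters' processing notes; the aligner, counter and annotation are not given in these sources. In the second table, 6 columns of per-library values carry codes found in no label and, like a table of mapping totals under such codes, were not used here.

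Depth was the value between 20 and 80 M reads that brought RPKM times length closest to whole reads, in genes under 0.3 kb with few reads and without multiply mapped reads; 100% of values were then within 0.1 of a whole read. Reads quoted are rebuilt with that depth, and such counts carry counting error besides replicate spread. Sampling noise was exceeded in each replicate pair (chi-square per degree of freedom 10.5 to 25.1). That cannot show whether the libraries came from separate plants or sowings. All 6 libraries counted separately because the labels call them biological replicates. Genotypes were compared with limma 3.58.1 (R 4.3.3, trend option) on log2(RPKM + 1), with Benjamini-Hochberg adjustment and a threshold of 0.05. The comparison covered the 20047 loci that reached 1 RPKM in 3 or more libraries. The fit was also run on simulated reads in which a small set of loci was raised by known folds. All simulated loci had the same small set spread, so that run cannot show how the fit behaves at the wider spread of the CRKs. Percentages and folds are ratios of mean RPKM. The members and gene lists were chosen with earlier results of these data known.

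Named genes are all members, CFM6, up to 8 other CRK loci and up to 3 per other list in order of adjusted p, and the 5 loci nearest to CRK4; others are marked where named. Names, promoters and transcripts came from RefSeq TAIR10.1 (19868 tested loci matched); identities were computed with Biopython 1.88. Protein features that had been planned were not analysed here. Alternatives were another pseudocount, other filters, a replicate block, 2 scalings, limma-voom, loss of loci with shared reads and each library left out.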

Additional observations from a re-analysis of the deposited data

How the results depend on the processing

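Of the 10 members, CRK13 changed sign, from -0.10 with all libraries to 0.04 without WT replicate 2. The others kept the sign of their difference under each alternative that gave them a value, but sizes moved for CRK4, CRK6, CRK7 and CRK8. With a pseudocount of 0.1 the difference was -6.23 for CRK4 and -4.11 for CRK6, against -4.95 and -3.10. By limma-voom it was -6.45 and -4.26. A filter of at least 10 RPKM left fewer loci to test, so counts dropped: 2 members lower, 4 other CRK loci lower and 4 higher, 1 PDLP gene higher, and 3696 lower and 4812 higher over all loci, with a median of -1.40 over the members left. The count of fallen PDLP genes was 2 with median-of-ratios scaling and 3 with quantile normalization, against 1, and ranged from 1 to 2 when 1 library was left out (2 without WT replicate 3). The count of members higher ranged from 1 to 2 when 1 library was left out (2 without cfm6-1 replicate 2, where CRK10 joined with a difference of 0.54), and the count lower from 5 to 6, CRK14 being lost. The causes of these shifts in the PDLP and member counts were not tested. Nothing is read from the member counts in any setting, since the members were chosen from this contrast. Over all tested loci, same-numbered cfm6-1 and WT libraries did not deviate together (correlations 0.032, -0.138 and -0.002 for numbers 1 to 3). Pairing that touches only a part of the loci was not tested. With a replicate block, 6 members were lower and 1 higher, and 12 other CRK loci were lower and 8 higher. The longer W-box, TTGACC or TTGACT, was in 7 of the 10 member windows. It was also in 20 of the 34 other CRK windows and in 28.4% of all windows. The scalings moved the median of all loci by less than 0.1 on the log2 scale, but with quantile normalization more loci were lower (7248) than higher (6562). Of the tested CRK loci, CRK23 had the fewest reads in cfm6-1, 22.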

Other observations

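Among the immune genes listed with the CRKs, chosen after their values were seen, RBOHD, the main NADPH oxidase of the immune oxidative burst, had 83.97, 70.72 and 103.88 RPKM in cfm6-1, against 22.58, 28.74 and 29.41 RPKM in WT (limma adjusted p = 7.85e-05). CPK28, a calcium-dependent kinase that limits BIK1, rose 3.29-fold (limma adjusted p = 0.000104). WRKY18, a transcription factor induced by salicylic acid, had 177.74, 137.73 and 200.03 RPKM in cfm6-1, against 27.17, 43.74 and 38.48 RPKM in WT (limma adjusted p = 6e-05), while WRKY70, another defence regulator, fell to 25.2% of WT (limma adjusted p = 0.000128). PR1 overlapped between genotypes, with 107.11, 274.58 and 157.06 RPKM in cfm6-1, against 177.43, 308.84 and 318.61 RPKM in WT (limma adjusted p = 0.153).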
